A study of Mus musculus with 6 samples.

Results

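Class I histone deacetylases are the 4 genes Hdac1, Hdac2, Hdac3 and Hdac8. They were taken by symbol from the deposited table and not by their measured values, and they are 4 of the 19616 genes listed. Earlier results of these data were known when the 4 genes were chosen. RNA-Seq was performed on EDTA-enriched jejunal intestinal epithelial cells (IEC) of 3-month-old mice on a mixed C57BL/6J X 129SV X CD1 background, and each mouse gave 1 library. The control group, labelled Ctr, held 3 wild-type mice named C3-3, C3 and C1. The other group, labelled Hdac1/2-/-, held 3 mice named H9, H5 and H1, in which a villin-Cre transgene deletes floxed Hdac1 and Hdac2. The villin promoter drives Cre in the intestinal epithelium, so cells of other types in the same preparation keep both genes.

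Histone deacetylases remove acetyl groups from lysines of histones and other proteins, and their removal from histones usually goes with gene repression. HDAC1 and HDAC2 are close paralogs that work as the catalytic subunits of the Sin3, NuRD, CoREST, MiDAC and MIER complexes. HDAC3 is the catalytic subunit of a corepressor complex that contains NCoR1. HDAC8 acts outside these complexes and is best known for deacetylating SMC3, a ring subunit of cohesin. In the intestine, class I enzymes are also targets of butyrate, a product of the microbiota that inhibits them.

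All 4 genes had enough reads to be tested, and 2 of them fell in the libraries labelled Hdac1/2-/-. Hdac1 RNA was 10.8-fold lower and Hdac8 RNA was 2.64-fold lower. Hdac2 and Hdac3 did not pass the test in either direction. A gene counted as called at a change of 2-fold or more with an adjusted p of 0.05 or less (edgeR quasi-likelihood test, Benjamini-Hochberg adjustment over the 15618 genes tested). Over all these genes, 25.2% were called and 12.7% were called lower, so that a call was common in this comparison. Calls were split into 1944 higher and 1990 lower, or 2463 and 1538 when libraries were scaled by their totals alone. The levels of Hdac1 and Hdac8 did not overlap between the groups, which was the case for 53.2% of all genes tested. Levels are given in CPM, which are counts scaled to a common library size with TMM factors.

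The start of the coding sequence is shown for Hdac1, for a processed copy of it named Gm10093, and for Hdac2, because reads can be told apart only where these differ. The first 120 coding bases of Hdac1 span exons 1 and 2 at chr4:129534656-129542629 on the minus strand. The matching bases of Gm10093 lie in its single exon at chr17:78491582-78491701 on the plus strand. Those of Hdac2 span exons 1 and 2 at chr10:36974752-36985197 on the plus strand. All are from GENCODE release M21 (GRCm38), and capitals mark bases that differ from Hdac1.
Hdac1: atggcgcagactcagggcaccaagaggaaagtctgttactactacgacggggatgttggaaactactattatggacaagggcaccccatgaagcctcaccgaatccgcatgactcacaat
Gm10093: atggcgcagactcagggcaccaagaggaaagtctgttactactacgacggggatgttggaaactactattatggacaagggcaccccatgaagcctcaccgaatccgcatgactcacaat
Hdac2: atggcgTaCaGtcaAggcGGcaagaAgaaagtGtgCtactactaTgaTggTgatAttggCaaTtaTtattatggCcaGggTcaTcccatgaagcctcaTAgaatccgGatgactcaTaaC

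Gm10093 had 0 differing bases in this stretch and Hdac2 had 25. Over the whole coding sequence, Hdac1 and Hdac2 were identical at 75.9% of aligned bases. The other pairs of class I genes were less alike, from 58.0% for Hdac2 and Hdac8 to 66.6% for Hdac1 and Hdac3. No stretch of 100 bases, the read length, was shared between Hdac2, Hdac3 or Hdac8 and any other annotated transcript.

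Hdac1 (ENSMUSG00000028800) lies on chromosome 4 from 129516104 to 129542713, on the minus strand, with 14 exons in its main transcript. Its expression was 48.8 CPM in C3-3, 34.5 in C3 and 39.1 in C1, against 4.81 in H9, 2.53 in H5 and 3.97 in H1. Every control library stood far above every library labelled Hdac1/2-/-. The group means were 40.8 ± 7.32 CPM and 3.77 ± 1.15 CPM (SD, n = 3). The log2 fold change was -3.43 (SE 0.26, 95% interval -4.02 to -2.84, adjusted p = 2.91e-05, edgeR quasi-likelihood test). Of all genes tested, 222 (1.42%) had a lower log2 fold change.

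Hdac1 RNA was not absent from the libraries labelled Hdac1/2-/-, where 296 reads were counted in H9, 96 in H5 and 294 in H1. The control libraries held 2596, 1916 and 2592 reads in C3-3, C3 and C1. The mean level that remained was 9.29% of the control level, with an interval of 6.16% to 14.0%. The counts are totals over the gene, so they do not show from which exons, or from which cells, the remaining reads came. In such bulk libraries, fewer cells with the RNA and less RNA per cell cannot be told apart.

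Hdac2 (ENSMUSG00000019777), on chromosome 10 from 36974544 to 37001889, is the other gene named as deleted in the labels. Its expression was 26.5 CPM in C3-3, 23.6 in C3 and 32.8 in C1, against 21.4 in H9, 25.4 in H5 and 26.6 in H1. The groups overlapped, with only the control library C1 above all the others. The means were 27.7 ± 4.71 CPM and 24.5 ± 2.70 CPM (SD, n = 3). The log2 fold change was -0.18 (SE 0.17, 95% interval -0.56 to 0.21, adjusted p = 0.438, edgeR quasi-likelihood test), and it was 0.0069 when libraries were scaled by their totals alone. The level in the libraries labelled Hdac1/2-/- was thus 88.5% of the control level, with an interval of 67.7% to 116%. The gene-level count therefore does not check the Hdac2 part of the label. A transcript that lacks the deleted exons is still counted where its other exons are read, and the exons between the loxP sites are not given in the sources used here.

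Hdac3 (ENSMUSG00000024454), on chromosome 18 from 37935844 to 37955016, had the highest counted level of the class. It measured 69.0 CPM in C3-3, 60.2 in C3 and 57.5 in C1, against 51.8 in H9, 53.2 in H5 and 58.6 in H1. H1 was above the lowest control library, so the groups overlapped. The means were 62.2 ± 6.02 CPM and 54.5 ± 3.59 CPM (SD, n = 3). The log2 fold change was -0.19 (SE 0.13, 95% interval -0.49 to 0.11, adjusted p = 0.279, edgeR quasi-likelihood test), and it was 0.0051 with library totals alone. The interval reaches neither a 2-fold fall nor a 2-fold rise.

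Hdac8 (ENSMUSG00000067567), on chromosome X from 102284639 to 102505359, was the least abundant member. It measured 5.98 CPM in C3-3, 6.19 in C3 and 5.98 in C1, against 2.06 in H9, 2.32 in H5 and 2.48 in H1. The 3 control libraries were nearly level and each stood above all libraries labelled Hdac1/2-/-. These levels rest on 318, 344 and 396 reads in C3-3, C3 and C1, and on 127, 88 and 184 reads in H9, H5 and H1. The means were 6.05 ± 0.123 CPM and 2.29 ± 0.211 CPM (SD, n = 3). The log2 fold change was -1.40 (SE 0.23, 95% interval -1.91 to -0.89, adjusted p = 0.00132, edgeR quasi-likelihood test). Of all genes tested, 9.50% had a lower log2 fold change. Hdac8 overlaps the antisense transcript Gm14858 over 80860 bases. The library kit kept strand, but the strand setting of the counting is not given in the sources used here, so reads of both could have been joined.

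**Figure D1:**
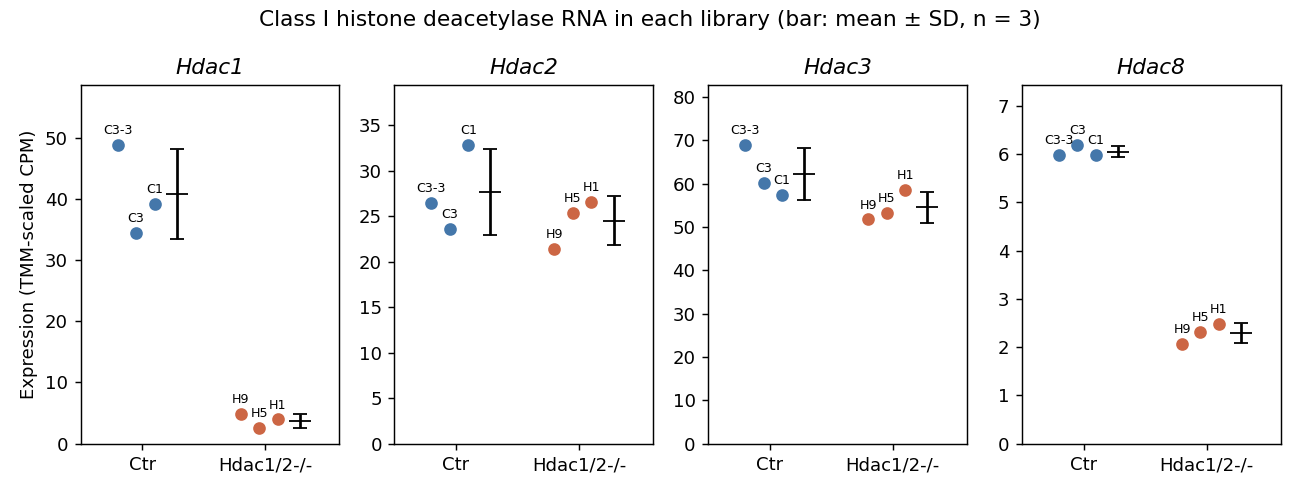
Expression of Hdac1, Hdac2, Hdac3 and Hdac8 in CPM (TMM-scaled, linear axes from 0, a different axis for each gene) in each library, with points for single mice and bars for the mean ± SD of 3. Groups are apart for Hdac1 (34.5 to 48.8 against 2.53 to 4.81 CPM) and Hdac8 (5.98 to 6.19 against 2.06 to 2.48 CPM) and overlap for Hdac2 and Hdac3.

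The spread between libraries is given for each member and includes counting error. The coefficient of variation over the control libraries was 17.9% for Hdac1, 17.0% for Hdac2, 9.67% for Hdac3 and 2.02% for Hdac8. In the libraries labelled Hdac1/2-/- it was 30.6% for Hdac1 and between 6.59% and 11.0% for the others. Among the latter, Hdac1 was 1.90-fold higher in H9, the highest, than in H5, the lowest and also the shallowest library.

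To compare the genes with each other, levels were divided by transcript length. In control IEC the level per kb of transcript was 30.6 ± 2.96 CPM for Hdac3, 20.03 ± 3.59 for Hdac1, 13.8 ± 2.35 for Hdac2 and 3.13 ± 0.0633 for Hdac8 (SD, n = 3). The ranges of neighbours in this order did not overlap, although those of Hdac1 (16.9 to 24.0) and Hdac2 (11.8 to 16.4) came close. In the libraries labelled Hdac1/2-/- the order was Hdac3 at 26.8 ± 1.77, Hdac2 at 12.2 ± 1.35, Hdac1 at 1.85 ± 0.567 and Hdac8 at 1.18 ± 0.109 CPM per kb. There the ranges of Hdac1 (1.24 to 2.36) and Hdac8 (1.07 to 1.28) overlapped, so these neighbours could not be ranked.

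Ratios of members within a library do not depend on how libraries are scaled. Hdac1 reads per Hdac2 read were 1.84 in C3-3, 1.46 in C3 and 1.19 in C1, against 0.224 in H9, 0.0996 in H5 and 0.149 in H1. Hdac1 thus exceeded Hdac2 in every control library and was below it in every library labelled Hdac1/2-/-. The mean log2 ratio differed by -3.30 between the groups. Hdac1 was also lower relative to Hdac8, with a difference in log2 ratio of -2.06 and ratios of 5.57 to 8.16 in control and 1.09 to 2.33 in the libraries labelled Hdac1/2-/-.

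Hdac8 in turn was lower relative to both members that did not pass the test. Hdac2 reads per Hdac8 read were between 3.82 and 5.49 in control libraries and between 10.4 and 11.0 in the libraries labelled Hdac1/2-/-. Hdac3 reads per Hdac8 read were between 9.62 and 11.5 and between 23.0 and 25.1. The log2 ratios differed by 1.24 and 1.22. By contrast, Hdac2 per Hdac3 differed by 0.02 on the log2 scale (two-sided exact permutation test, p = 1). The other 5 of the 6 pairs gave p = 0.1 (adjusted p = 0.12 over the 6 pairs), which is the smallest p that an exact permutation test of 3 libraries against 3 can give, so this test cannot pass a limit of 0.05.

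The make-up of class I RNA followed from these ratios. Per kb of transcript, Hdac1 made up 29.5 ± 2.49% of class I reads in control IEC and 4.42 ± 1.48% in the libraries labelled Hdac1/2-/-. The share of Hdac3 was 45.4 ± 2.96% and 63.8 ± 0.478%, and that of Hdac2 was 20.5 ± 3.52% and 29.0 ± 1.84%. Hdac8 went from 4.66 ± 0.519% to 2.81 ± 0.105% (SD, n = 3 for each). Ranges of the groups did not overlap for any member. The larger shares of Hdac2 and Hdac3 came without a rise in their own levels, as given above. The Hdac1 counts in these shares, and in the sums below, may be too low because of the stretches shared with Gm10093.

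**Figure D2:**
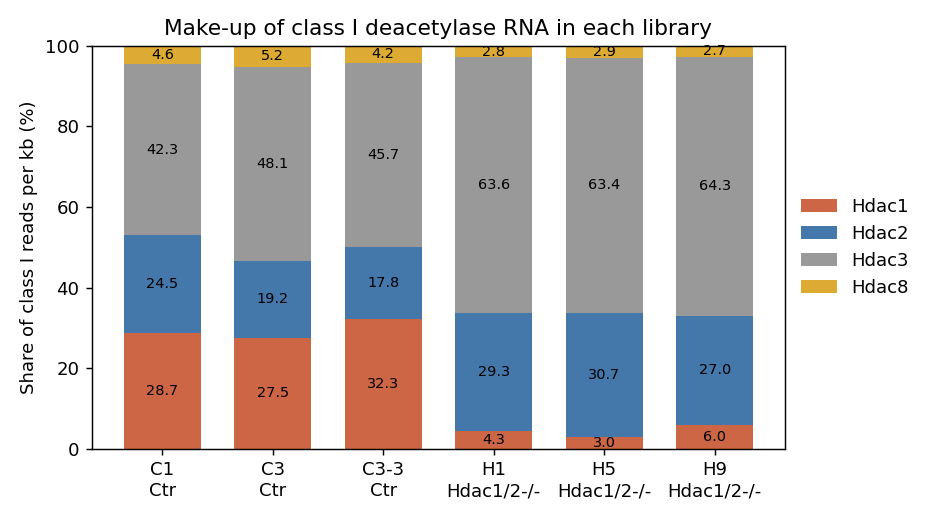
Share of each class I gene in the summed class I reads per kb of transcript (%, stacked to 100) in each of the 6 libraries. Hdac1 takes 27.5% to 32.3% in control libraries and 3.00% to 5.96% in those labelled Hdac1/2-/-, where Hdac3 takes 63.4% to 64.3%.

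The summed level of the 4 genes was 137 ± 13.0 CPM in control IEC and 85.0 ± 5.95 CPM in the libraries labelled Hdac1/2-/- (SD, n = 3), which is 62.2% of the control level. Each control library (124 to 150 CPM) was above each of the others (80.1 to 91.6 CPM), and an exact permutation test gave its smallest possible p of 0.1. Hdac1 and Hdac2 together amounted to 68.5 ± 9.12 CPM and 28.2 ± 2.18 CPM, or 41.2% of control. With library totals alone, the sum of all 4 was 71.0% of control.

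Gm10093 (ENSMUSG00000061062) is annotated as a processed pseudogene of Hdac1 on chromosome 17 from 78491582 to 78493025. Over its 1444 bases it had 9 mismatches and 0 gaps against the Hdac1 transcript, an identity of 99.4%, and the longest identical run was 450 bases. Of its 1345 windows of 100 bases, 905 (67.3%) were also found in Hdac1, so many reads cannot be assigned to either gene from their sequence. The Hdac1 and Gm10093 sequences printed above come from such a shared stretch.

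The counts listed for Gm10093 were 319, 261 and 389 in C3-3, C3 and C1, and 48, 11 and 45 in H9, H5 and H1. They moved with Hdac1, at 12.3% to 15.0% of the Hdac1 count in control libraries and 11.5% to 16.2% in the libraries labelled Hdac1/2-/-. The log2 fold change of Gm10093 was -3.27 (SE 0.38, adjusted p = 2.30e-04, edgeR quasi-likelihood test). Because its reads may belong to Hdac1, the value of Gm10093 is uncertain. Adding its counts to those of Hdac1 gave a log2 fold change of -3.41 for the sum (adjusted p = 3.51e-05, same test). Reads that the counting may have discarded as matching both genes are not in these counts. This sum was chosen after the data had been seen.

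**Figure D3:**
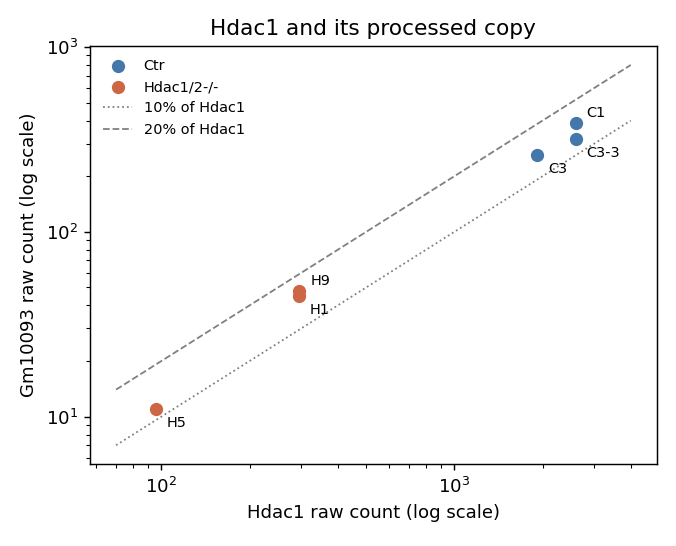
Raw counts of Gm10093 (vertical, log scale) against raw counts of Hdac1 (horizontal, log scale) in the 6 libraries, with lines at 10% and 20% of the Hdac1 count. All libraries lie between the lines, from 11.5% in H5 to 16.2% in H9.

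The remaining zinc-dependent deacetylases, of classes II and IV, were examined next. Of 7 listed, 6 were tested and 3 (50%) fell, Hdac5, Hdac10 and Hdac11, beside 12.7% of all genes called lower. Hdac11, the class IV enzyme, measured 49.3, 52.4 and 47.7 CPM in C3-3, C3 and C1, and 9.82, 13.8 and 14.4 CPM in H9, H5 and H1. Its log2 fold change was -1.97 (SE 0.18, adjusted p = 6.23e-05, edgeR quasi-likelihood test), the lowest of the deacetylase genes other than Hdac1.

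Hdac5, a class IIa enzyme that shuttles between nucleus and cytoplasm, went from 76.1 ± 23.2 to 25.5 ± 3.36 CPM (SD, n = 3). Its control libraries ranged from 55.9 in C3-3 to 101 in C3, all above the highest library labelled Hdac1/2-/- at 28.6. Hdac10, a polyamine deacetylase of class IIb, went from 10.9 ± 1.18 to 3.65 ± 0.0995 CPM. The log2 fold change was -1.58 for both (adjusted p = 6.82e-04 and 3.60e-04, edgeR quasi-likelihood test).

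Hdac4, another class IIa member, had a log2 fold change of -0.55 with an adjusted p of 0.0408 (same test), under the 2-fold limit. Hdac6, the tubulin deacetylase, had -0.16 and Hdac7 had -0.43 (adjusted p = 0.574 and 0.237). The value for Hdac6 was 0.04 with library totals alone. Hdac9 was near the limit of detection, with 0 to 10 reads per library, and was not tested.

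The sirtuins form the NAD-dependent class of deacetylases, which share no catalytic mechanism with class I. Of 7 tested, 4 (57.1%) fell, beside 12.7% of all genes called lower. Sirt2, mainly cytoplasmic, went from 65.1 ± 8.83 to 21.7 ± 0.673 CPM (log2 fold change -1.58, adjusted p = 6.92e-05, edgeR quasi-likelihood test). Sirt5, the mitochondrial desuccinylase, went from 4.61 ± 1.53 to 1.39 ± 0.315 CPM (-1.72, adjusted p = 0.00337). Both kept their call in all fits tried.

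Sirt1, a nuclear sirtuin, had a log2 fold change of -1.15 (adjusted p = 0.00383, edgeR quasi-likelihood test) that was -0.96, under the fold limit, with library totals alone. Sirt4, a mitochondrial sirtuin, had -1.22 (adjusted p = 0.0108), which was -0.99 without H9. The values for Sirt3, Sirt6 and Sirt7 were -0.24, 0.16 and 0.44, and these did not pass (adjusted p = 0.238, 0.518 and 0.0528). Over the 13 tested deacetylases outside class I, 7 (53.8%) were called, all lower, and the median log2 fold change was -1.15. Over all genes tested, 25.2% were called and the median was -0.01.

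**Figure D4:**
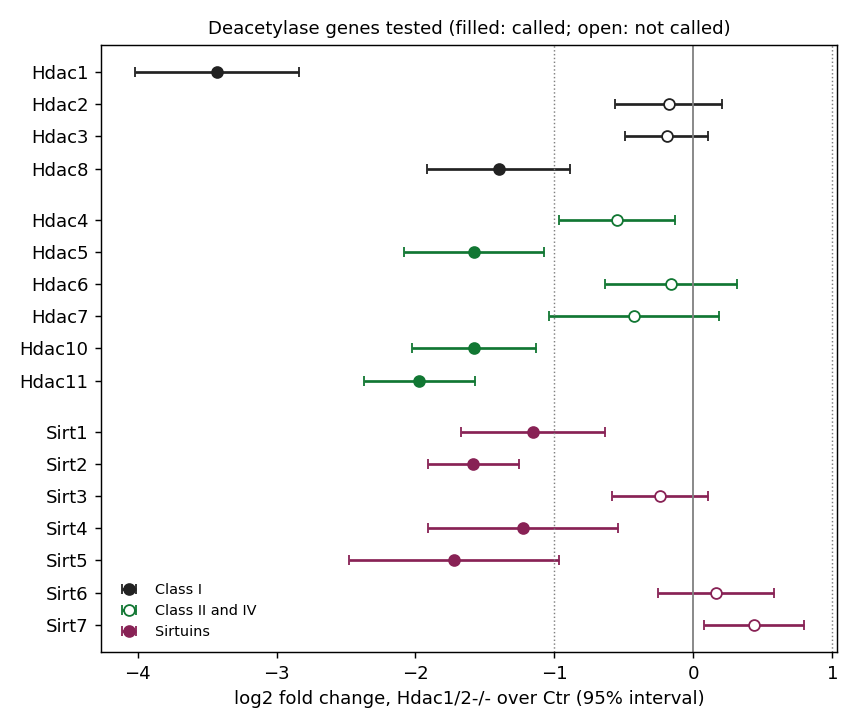
Log2 fold change (Hdac1/2-/- over Ctr) with its 95% interval for the 17 tested genes of class I, of classes II and IV, and of the sirtuins. Filled points are called and open points are not, dotted lines mark a 2-fold change, and all 9 called genes lie on the lower side.

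The genes for the other subunits of class I complexes were examined in the same way. Of 48 listed, all were tested, 5 rose and 4 fell. The share called was 18.8%, beside 25.2% of all genes, and the median log2 fold change was 0.33. With no fold limit 24 of the 48 passed, beside 40.8% of all genes.

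Scaffolds and other core subunits of the complexes of HDAC1 and HDAC2 were measured whether called or not. Sin3a, the Sin3 scaffold, measured 46.3 ± 3.48 CPM in control IEC and 77.2 ± 6.08 CPM in the libraries labelled Hdac1/2-/-, a log2 fold change of 0.74 (adjusted p = 0.00214, edgeR quasi-likelihood test). Chd4, the NuRD remodelling ATPase, had 0.73 (adjusted p = 0.00449), and Rcor1, the CoREST scaffold, had 0.81 (adjusted p = 0.00248). For these the groups did not overlap, which was the case for 53.2% of all genes tested, and the changes were under the 2-fold limit. Of the MiDAC subunits, Dnttip1 had 0.07 (adjusted p = 0.770) and Elmsan1 had 0.50 (adjusted p = 0.0443, same test), under the 2-fold limit.

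Rcor2, a paralog of Rcor1, rose most among the subunits. It measured 1.15, 0.702 and 1.36 CPM in C3-3, C3 and C1 and 11.6, 17.4 and 15.3 CPM in H9, H5 and H1. Its log2 fold change was 3.78 (SE 0.31, adjusted p = 3.98e-05, edgeR quasi-likelihood test). In the same complex Phf21a, a reader of unmethylated histone H3, fell by 1.12 on the log2 scale (adjusted p = 9.90e-04), a change that was under the fold limit with library totals alone.

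In the NuRD complex, Mbd3 rose from 39.6 ± 0.967 to 102 ± 15.8 CPM (log2 fold change 1.36, adjusted p = 1.63e-04, edgeR quasi-likelihood test). Chd5, a paralog of Chd4, fell by 1.90 on the log2 scale (adjusted p = 0.0116), on 38 to 81 reads in control libraries and 8 to 27 in the others. In the Sin3 complex, Ing1, a reader of methylated histone H3, rose from 17.0 ± 0.447 to 36.6 ± 1.84 CPM (1.11, adjusted p = 2.79e-04). Ing1 was the only called gene of 14 in that list, or 7.14%, beside 25.2% of all genes. In the same list 2 were called without C3-3, H5 or H1 and 3 with library totals alone.

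The MIER proteins bring HDAC1 and HDAC2 to chromatin. Mier2 rose from 19.6 ± 1.13 to 55.0 ± 3.44 CPM and Mier1 fell from 33.1 ± 3.70 to 16.3 ± 2.50 CPM. The log2 fold changes were 1.49 and -1.02 (adjusted p = 5.85e-05 and 0.00142, edgeR quasi-likelihood test). Mier1 was close to the fold limit and lost its call with library totals alone and without C1, H9 or H5. Of the histone-binding chaperones, Rbbp7 went from 65.1 ± 9.24 to 130 ± 14.3 CPM, a 2-fold rise (adjusted p = 0.00104), and fell under the fold limit without C3-3, C3, H5 or H1. Rbbp4 had -0.16 (adjusted p = 0.523).

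Ncor1 encodes a corepressor that binds and activates HDAC3. It measured 288, 378 and 350 CPM in C3-3, C3 and C1 and 168, 179 and 156 CPM in H9, H5 and H1. Its log2 fold change was -1.01 (adjusted p = 9.49e-04, edgeR quasi-likelihood test), and the call was lost in 7 alternatives, among them those without C3, C1 or H1. Hdac3 itself, as given above, did not pass the test.

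For HDAC8, the known substrate and its complex were measured. Smc3 had a log2 fold change of 0.46 (adjusted p = 0.0447, edgeR quasi-likelihood test), with 33.3 ± 6.02 CPM in control IEC and 46.0 ± 3.37 CPM in the libraries labelled Hdac1/2-/-. Of 13 genes for cohesin and its regulators, 0 were called by edgeR, which called 25.2% of all genes, and 0 by DESeq2. With no fold limit 4 had an adjusted p of 0.05 or less, beside 40.8% of all genes, and 4 had an unadjusted p under 0.05 (edgeR quasi-likelihood test). Of the 4 that passed the adjusted limit, Smc3 rose, and Smc1a, Stag1 and Stag2 fell (log2 fold changes -0.47, -0.73 and -0.62). The log2 fold changes of all 13 genes lay between -0.73 and 0.78, with a median of -0.14.

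Of 13 genes for enzymes that add histone acetyl groups and for the BET proteins that bind them, 3 (23.1%) were called, beside 25.2% of all genes. The paralogous acetyltransferases Kat2a and Kat2b moved in opposite directions. Kat2a rose from 13.6 ± 3.87 to 41.8 ± 9.18 CPM and Kat2b fell from 33.8 ± 3.33 to 10.02 ± 2.401 CPM (log2 fold changes 1.62 and -1.75, adjusted p = 7.97e-04 and 2.13e-04, edgeR quasi-likelihood test). The BET gene Brd2 had -1.004, at the fold limit, and lost its call in 10 alternatives, those without C3-3, C3, C1, H9 or H5 among them. Brd3 had 0.78, under the fold limit, and was not called.

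**Figure D5:**
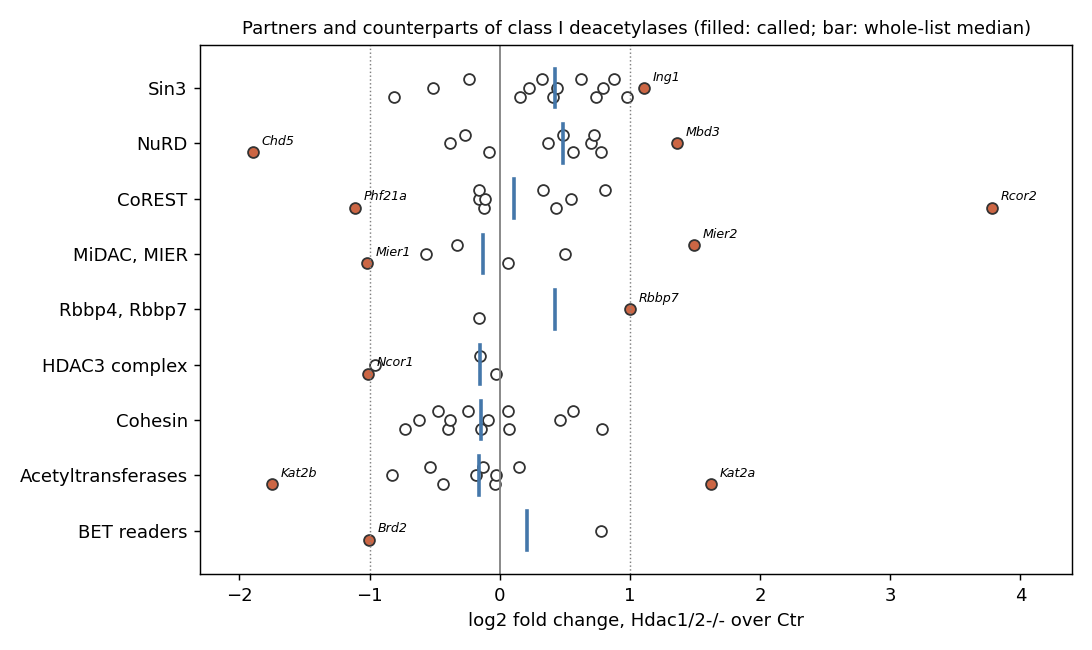
Log2 fold change (Hdac1/2-/- over Ctr) of genes in 9 lists of complex subunits, cohesin, acetyltransferases and BET readers, with vertical bars for the medians of the whole lists, genes not reported by name included, and dotted lines at a 2-fold change. The 12 called genes are filled and named, from Chd5 at -1.90 to Rcor2 at 3.78.

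The genes whose levels followed each member most closely over the 6 libraries were sought among the 8591 genes whose mean log2 CPM reached 3. Likeness was the root mean square difference of centred log2 values of CPM plus 0.5, as a description. The added 0.5 shrinks changes at low levels, such as those of Hdac8. Whether other genes would be named without it was not tested. For Hdac1 they were Osbpl1a (0.154), Arl14 (0.2005) and H2-T22 (0.215), the last from a multigene family whose reads could be split. For Hdac8 they were Irf9 (0.0639), Chp2 (0.0752) and Rufy1 (0.0765). For Hdac2 they were Sumo2 (0.0384), Mllt3 (0.0521) and Smchd1 (0.0591), and for Hdac3 Tpd52 (0.0449), Blzf1 (0.0547) and Tma7 (0.0576).

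Total counts ranged from 36111035 in H5 to 65902344 in C1, and 3 counts, the least taken as detectable, equalled 0.0405 to 0.0790 CPM. The epithelial label was checked with Vil1 at 4217 ± 716 and 3047 ± 449 CPM and Epcam at 1664 ± 166 and 1081 ± 124 CPM in control and in the libraries labelled Hdac1/2-/-. Summed epithelial markers (4 of 9 with the higher mean in the libraries labelled Hdac1/2-/-) were 12890 to 14749 CPM and 10328 to 12693 CPM. Of 9 tested, 1 was called (11.1%, beside 25.2% of all genes). It was Krt18, which rose by a log2 fold change of 1.02 (adjusted p = 5.91e-04, edgeR quasi-likelihood test). Lymphocyte markers (2 of 11 higher) summed to 107 to 151 and 71.6 to 118 CPM, with Ptprc at 16.5 ± 7.21 and 8.45 ± 3.31 CPM and Cd3e at 16.7 ± 8.89 and 7.07 ± 2.67 CPM, neither called. Of 9 lymphocyte markers tested, 4 were called (44.4%, beside 25.2% of all genes). Cd3g and Cd8a fell (log2 fold changes -1.68 and -1.32) and Cd4 and Cd79b rose (1.62 and 4.84), Cd79b from a mean of 1.15 to 32.7 CPM. Myeloid markers (5 of 6 higher) summed to 11.3 to 19.98 and 19.7 to 36.3 CPM, and mesenchymal markers (1 of 10 higher) to 16.1 to 72.4 and 18.9 to 30.1 CPM. Of 6 myeloid markers tested, 1 was called (16.7%, beside 25.2% of all genes). It was Csf1r, which rose by a log2 fold change of 1.75. Of 9 mesenchymal markers tested, 5 were called (55.6%, beside 25.2% of all genes). Myh11, Acta2, Des and Dcn fell (log2 fold changes -10.7, -6.74, -6.26 and -1.48) and Pdgfrb rose (3.00). Control levels of Myh11 were 0.452 CPM in C3-3, 12.6 in C3 and 25.4 in C1. Acta2 and Des were also lowest in C3-3 among the control libraries. Endothelial markers (2 of 5 higher) summed to 1.39 to 2.55 and 1.61 to 3.06 CPM, and neural and glial markers (2 of 4 higher) to 0.395 to 1.10 and 2.21 to 4.71 CPM. Of 2 endothelial markers tested, 0 were called. Of 2 neural and glial markers tested, 1 was called (50%, beside 25.2% of all genes). It was Tubb3, which rose by a log2 fold change of 2.81. No marker was at 0 in all libraries. The part of these cells in the values of the class I genes was not tested.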

How the data were processed

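Poly(A), directional RNA libraries of jejunal IEC from 3 control and 3 Hdac1/2-/- mice were sequenced with paired reads. The authors aligned the reads with STAR and deposited raw counts per gene. The paper's methods name GRCm38, whereas the submitters' processing notes name mm9, STAR 2.4.0f1 and bcl2fastq 1.8.4. The counting program, annotation and strand setting are not given in the sources used here. Coordinates, lengths and sequences are from GENCODE M21 (GRCm38), which holds 19526 of the 19616 deposited identifiers. The table's rescaled counts, fold changes and p-values are the authors' own comparison and were not used.

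Counts were filtered with filterByExpr, TMM-scaled and fitted with edgeR 4.0.16 (robust quasi-likelihood, prior count 0.125, no covariates) in R 4.3.3, with Benjamini-Hochberg adjustment over 15618 genes. The SE is the log2 fold change divided by the square root of F. Alternatives used DESeq2 1.42.0, other scalings, filters and no fold limit, and left out each mouse. Figures were drawn with matplotlib 3.10.9 in Python 3.11.15. The steps were tested on simulated data. Replicates are separate mice. Counting intervals cover counting error only.

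The members and gene lists were chosen with earlier results of these data known. Named genes are all class I genes and other deacetylases, called genes of the partner lists, the complex subunits Sin3a, Chd4, Rcor1, Ncor1 and Dnttip1, Smc3, the copy of Hdac1, 4 markers and the 3 genes most like each member. Brd3, Rbbp4, Elmsan1, Krt18, Cd3g, Cd8a, Cd4, Cd79b, Csf1r, Myh11, Acta2, Des, Dcn, Pdgfrb, Tubb3, Smc1a, Stag1 and Stag2 were added after their values were seen. Some genes of the lists are counted but not reported here by name.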

Additional observations from a re-analysis of the deposited data

How the results depend on the processing

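Hdac1 and Hdac8 were called and Hdac2 and Hdac3 were not in all 12 fits (edgeR with 3 scalings and 3 filters, DESeq2, and each mouse left out). Log2 fold changes ranged from -3.63 to -3.21 for Hdac1 (adjusted p 1.33e-35 to 5.06e-04), from -1.46 to -1.21 for Hdac8 (4.07e-09 to 0.00763), from -0.27 to 0.0069 for Hdac2 and from -0.24 to 0.0051 for Hdac3. With library totals alone, which moved the median of all genes by 0.19 on the log2 scale, Hdac2 (0.0069) and Hdac3 (0.0051) changed sign, 2463 genes were called higher and 1538 lower (1944 and 1990 as reported), and the summed class I level differed by -37.1 CPM (-51.7 as reported, -57.8 to -44.9 with each mouse left out). With no fold limit the genes called were 6366 of all, 24 complex subunits, 6 acetyltransferases and BET readers, and 4 cohesin genes. The difference in the Hdac2 to Hdac3 log2 ratio lay between -0.0819 and 0.205 when single mice were left out, and was negative without C3-3 (-0.0819), C3 (-0.0655) and H5 (-0.0265). The cause of these shifts was not tested. Between 3631 and 4121 genes were called when single mice were left out. Of 189 checks of the main results, 179 were rated the same. For a single gene this meant the same direction and side of the threshold, and for a number of genes called, a similar number. For a ratio, share or sum it meant the same sign and a shift under the pooled SD of the groups. No paired analysis was possible because the mice of the groups carry names of their own and no shared pairing. The lowest counts of class I genes were 88 for Hdac8 and 96 for Hdac1, both in H5.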
